A study of Mus musculus with 12 samples.

Results

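Mitochondrial ribosomal proteins are made from nuclear genes and imported into the mitochondrion, where they join with RNA from the mitochondrial genome to form its own ribosome. The genes described here are the 59 rows, of 14143 genes in the deposited expression table, whose symbol is Mrpl or Mrps followed by a digit. They were measured by RNA-seq in haematopoietic stem cells (HSCs), self-renewing cells of the bone marrow from which all blood lineages arise, of female C57BL6J mice. The 4 groups were old My-HSCs, old Ly-HSCs, young My-HSCs and young Ly-HSCs, with 3 libraries each from independent groups of mice. My-HSCs are the myeloid-biased cells with high CD150, and Ly-HSCs are the lymphoid-biased cells with low CD150. Both fractions were sorted as lineage-negative cells that carried Sca-1 and c-kit and lacked CD48 and CD135. Old mice were 18 months old, and young mice were 8 to 10 weeks old per the sample labels and up to 12 weeks old per the protocol. The labels name no engineered allele and no agent given to the mice. Old mice were obtained from the colony of the National Institute on Aging, young mice from the Jackson Laboratory or a colony at UCLA, so age and colony cannot be told apart.

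The mitochondrial ribosome translates only the few proteins encoded by mitochondrial DNA, which are core subunits of the respiratory chain and of the ATP synthase. It descends from a bacterial ribosome, and its proteins either have a bacterial counterpart or were added in the mitochondrial lineage. Mrps proteins are named for the small subunit, which decodes the messenger RNA, and Mrpl proteins for the large subunit, which forms the peptide bonds. Blood stem cells are known for a low reliance on respiration at rest, and for a demand on mitochondrial activity when they divide and differentiate.

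None of the 59 genes passed the test in any comparison of age or of HSC subset. Their summed level overlapped between the 4 groups, and their replicate libraries spread more widely in young than in old cells, as those of most genes did. By subunit and origin, 23 genes encode large-subunit proteins with a bacterial counterpart and 17 encode mitochondria-specific large-subunit proteins. The small subunit is represented by 10 genes with a bacterial counterpart and 9 that are mitochondria-specific. Mrps18a is counted with the large subunit, where its product sits in spite of its name. The GENCODE M21 annotation holds 78 protein-coding genes with such symbols, and the other 19, Mrps18c and Mrps36 among them, were not analysed here. All 59 genes reached 1 FPKM, fragments scaled to transcript length and library size, in at least 3 libraries and entered every test.

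Several properties of the libraries bear on these values. Depth was estimated from the size of the smallest values, with old My-HSC library 2 set to 1. It was greatest for old Ly-HSC library 3, at 1.06, and smallest for young Ly-HSC library 1, at 0.351. The same shallow library listed 34.1% of all genes at 0, and old My-HSC library 2, with the fewest, 12.1%. Of 14 HSC markers 11 had a row, and they summed to between 574 and 639 FPKM for old My-HSCs, 403 and 456 for old Ly-HSCs, 592 and 624 for young My-HSCs and 440 and 580 for young Ly-HSCs. Granulocyte and monocyte markers, with 8 of 18 measured, summed to between 122 and 359.9 FPKM for old My-HSCs, 95.2 and 389.8 for old Ly-HSCs, 47.1 and 69.5 for young My-HSCs and 1.79 and 69.1 for young Ly-HSCs. Cell cycle genes, with 34 of 38 measured, summed to between 467 and 638 FPKM for old My-HSCs, 646 and 1022 for old Ly-HSCs, 513 and 698 for young My-HSCs and 409 and 634 for young Ly-HSCs. No gene of these 3 lists was at 0 in all libraries, and their part in the values of the ribosomal genes was not tested.

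Summed over the 59 genes, expression was 1028 ± 58.7 FPKM in old My-HSCs, 1128 ± 89.9 in old Ly-HSCs, then 1026 ± 158 in young My-HSCs and 992 ± 98.6 in young Ly-HSCs (SD, n = 3 each). The groups overlapped, since single libraries ranged from 866 FPKM in young My-HSC library 3 to 1232 FPKM in old Ly-HSC library 1. These sums made up 0.466% ± 0.0228 of all FPKM in old My-HSCs, 0.507% ± 0.0284 in old Ly-HSCs, then 0.479% ± 0.068 in young My-HSCs and 0.453% ± 0.0418 in young Ly-HSCs. In bulk samples such as these, fewer cells of a type and less RNA per cell cannot be told apart. The genes lay in the middle of the transcriptome, with a median level over the members of 13.5 FPKM, against 12.2 FPKM over all 10900 genes tested.

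Levels of FPKM, which are set per length of transcript, differed 16.4-fold between the highest and the lowest gene mean. Mrpl52, a mitochondria-specific protein of the large subunit, was the highest by mean log2(FPKM + 1). It stood at 69.9, 88.6 and 91.2 FPKM in old My-HSCs, 102, 66.4 and 81.1 in old Ly-HSCs, then 17.1, 52.1 and 55.2 in young My-HSCs, with 48.7, 57.6 and 114 in young Ly-HSCs. Mrpl24, the counterpart of a bacterial protein that starts assembly of the large subunit, followed with a median of 78.4 FPKM over the 12 libraries and a range of 10.7 to 101. Mrpl18, counterpart of a bacterial protein of the central protuberance, had a median of 56.5 FPKM and a range of 22.8 to 118, and the small-subunit protein Mrps25 a median of 61.3 FPKM and a range of 25.1 to 113. Mrpl12, the stalk protein that recruits translation factors, had a median of 59.5 FPKM but stood at 2.35 FPKM in young Ly-HSC library 1. Mrpl28, Mrps15 and Mrps33 complete the 8 highest, at medians of 27.1, 31.8 and 22.96 FPKM.

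At the other end, Mrps35, of the small subunit, stood at 9.27, 4.32 and 4.87 FPKM in old My-HSCs, 3.16, 4.15 and 3.29 in old Ly-HSCs, then 1.16, 3.66 and 3.24 in young My-HSCs, with 2.29, 1.71 and 10.2 in young Ly-HSCs. Mrps14, Mrpl51, Mrpl17, Mrpl15, Mrps17, Mrpl47 and Mrpl23 made up the rest of the 8 lowest, with medians between 4.61 and 6.50 FPKM. Proteins of both subunits and of both origins thus stood at both ends of the order. The median over genes of the mean log2 level was 3.33 for large-subunit proteins with a bacterial counterpart and 3.69 for the mitochondria-specific ones. In the small subunit it was 3.85 for proteins with a bacterial counterpart and 3.91 for the mitochondria-specific ones. All 58 neighbouring pairs differed by less than the smaller of their SDs over the 12 libraries. That SD includes differences between groups and is not the error of a mean, so it cannot decide whether neighbours differ. The order from gene to gene was not tested. Across the 59 genes, level was lower for longer genes as annotated (exon union, 1027 to 8631 bases), at a Spearman correlation of -0.56, against 0.059 over all genes tested. This is a relation across genes of the same libraries, and genes are not independent replicates. FPKM itself has length as its divisor, so part of the relation may be built into the measure, and how much was not tested.

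**Figure D1:**
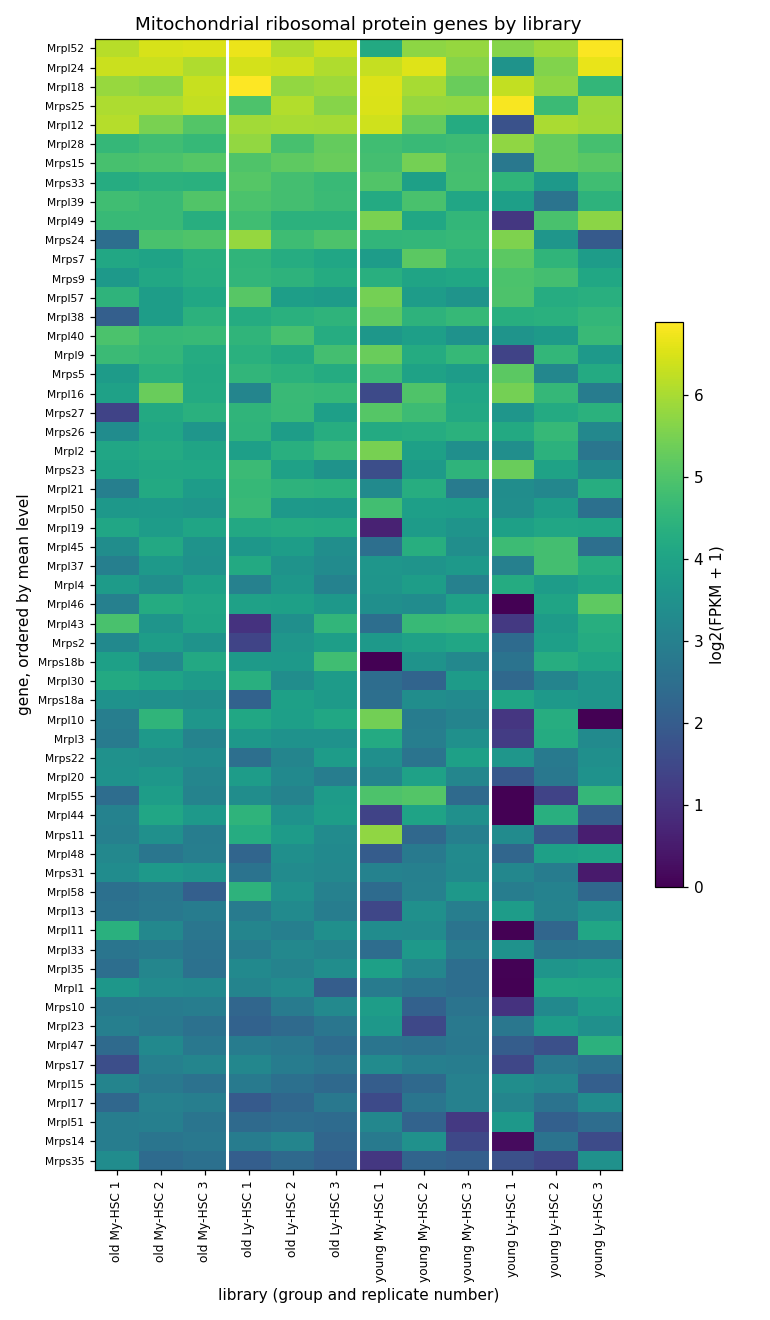
Heat map of log2(FPKM + 1) for the 59 mitochondrial ribosomal protein genes (rows, from the highest mean at the top, Mrpl52, to the lowest, Mrps35) in the 12 libraries (columns, by group, white lines between groups). Dark cells in young My-HSC library 1 and in young Ly-HSC libraries 1 and 3 are genes at or near 0, and the old libraries hold none listed at 0.

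The first comparison, old with young Ly-HSCs, addresses ageing of the lymphoid-biased fraction. Of the 59 genes, 37 stood higher and 22 lower in old Ly-HSCs, or 62.7% higher, against 62.4% of all genes tested. The median log2 fold change was 0.25 over the members and 0.18 over all genes. No member was called by limma at an adjusted p under 0.05, where 0.349% of all genes were, and the smallest adjusted p was 0.235. At an unadjusted p under 0.05, 3 members were higher and 1 was lower, 5.08% and 1.69% of them, against 10.2% and 3.06% of all genes. Large-subunit genes with a bacterial counterpart had 16 of 23 higher at a median of 0.61, and the mitochondria-specific ones 9 of 17 at 0.25. In the small subunit, 7 of 10 genes with a bacterial counterpart were higher at a median of 0.43, and 5 of 9 mitochondria-specific genes at 0.19.

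The smallest p in Ly-HSCs belonged to Mrpl39, a mitochondria-specific protein of the large subunit. It stood at 30.0, 27.2 and 24.9 FPKM in old Ly-HSCs and at 13.7, 5.34 and 21.1 FPKM in young Ly-HSCs. The lowest old library lay above the highest young one, and the log2 fold change was 1.15 ± 0.40 (limma standard error, adjusted p = 0.235). Mrpl10, counterpart of the bacterial protein at the base of the stalk, was at 16.3, 13.8 and 16.2 FPKM in old Ly-HSCs, and at 1.12 and 18.8 FPKM and listed at 0 in the young ones. Its old libraries were close together and lay within the range of the young ones (log2 fold change 2.24 ± 0.93, adjusted p = 0.333). In this comparison Mrpl10 was the 1 member that passed when a single library was left out. Without young Ly-HSC library 2 the change was 3.49 ± 0.73 and passed at an adjusted p of 0.0359. That library was the young one at 18.8 FPKM, so the call rests on those at 1.12 FPKM and at 0. Mrps11, which sits on the platform of the small subunit, stood at 18.2, 12.6 and 8.99 FPKM in old Ly-HSCs, against 9.11, 2.74 and 0.499 FPKM in young Ly-HSCs (1.84 ± 0.82, adjusted p = 0.351). The groups of Mrps11 overlapped by its lowest old and highest young library. Mrpl9 and Mrps14, both with bacterial counterparts, had changes of 1.24 ± 0.61 and 1.31 ± 0.65 at an adjusted p of 0.402 each. Young Ly-HSC library 1 was the lowest for both, and without it the changes were 0.32 for Mrpl9 and 0.67 for Mrps14. Mrpl39 was at 0.65 without young Ly-HSC library 2, and without young Ly-HSC library 3 Mrpl10 was at 1.34 and Mrps11 at 1.16.

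Mrpl4, counterpart of a protein that lines the exit tunnel of the nascent chain, had the smallest p among the genes that stood lower in old Ly-HSCs. Its values were 7.13, 11.4 and 7.32 FPKM in old Ly-HSCs and 17.8, 13.0 and 15.6 FPKM in young Ly-HSCs. The groups did not overlap, and the log2 fold change was -0.79 ± 0.35 (adjusted p = 0.348). Mrpl23, another protein of the tunnel exit, was also lower in every old library, with a change of -0.91 ± 0.54 (adjusted p = 0.483). In all, 3 members were higher and 2 lower in every old Ly-HSC library than in any young one, 5.08% and 3.39% of them, against 11.5% and 4.5% of all genes. Mrpl17, Mrps18a and Mrps2 followed among the lower genes, at -0.71 ± 0.50, -0.51 ± 0.47 and -0.55 ± 0.62. Without old Ly-HSC library 1, where Mrps18a stood at 3.51 and Mrps2 at 1.68 FPKM, their changes were 0.042 for Mrps18a and 0.22 for Mrps2.

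In the second comparison, old with young My-HSCs, 34 genes stood higher and 25 lower in old cells, or 57.6% higher, against 55.8% of all genes. The median log2 fold change was 0.080 over the members and 0.066 over all genes. No member was called by limma, where 0.211% of all genes were, and the smallest adjusted p was 0.386. Before adjustment, 3 had a p under 0.05 and were higher and 1 was lower, at 5.08% and 1.69% of members and 5.06% and 2.16% of all genes. The direction of the median rested on single libraries, and it was -0.11 without young My-HSC library 3. Large-subunit genes with a bacterial counterpart had 16 of 23 higher and those of the small subunit 2 of 10, at medians of 0.12 and -0.21. Among the mitochondria-specific genes, 10 of 17 large-subunit and 6 of 9 small-subunit genes were higher, at medians of 0.22 and 0.080.

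Mrpl40, which in humans lies in the chromosome region lost in DiGeorge syndrome, had the smallest p in My-HSCs. It stood at 29.7, 23.5 and 23.8 FPKM in old My-HSCs and at 11.6, 13.7 and 10.4 FPKM in young My-HSCs. The groups lay well apart, and the log2 fold change was 1.05 ± 0.32 (adjusted p = 0.386). Mrpl52, the highest gene, stood above all young My-HSC libraries in every old one at the values given above (1.15 ± 0.40, adjusted p = 0.504). Mrpl30, counterpart of a bacterial large-subunit protein, was at 17.3, 15.1 and 12.8 FPKM in old My-HSCs and 4.55, 3.66 and 12.9 FPKM in young My-HSCs (1.17 ± 0.48, adjusted p = 0.592). Its groups met, because the lowest old and the highest young library were nearly equal.

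Mrpl19 was at 15.9, 13.1 and 15.5 FPKM in old My-HSCs and at 0.588, 12.8 and 10.8 FPKM in young My-HSCs (1.31 ± 0.62, adjusted p = 0.713). Young My-HSC library 1 was far below the other libraries, and the groups did not overlap. Mrps18b, listed at 0 in the same library, had a change of 1.52 ± 0.79 (adjusted p = 0.764). Mrpl38, a mitochondria-specific large-subunit protein, stood lower in old My-HSCs, at 3.22, 13.4 and 20.6 FPKM, against 35.01, 20.8 and 23.5 FPKM in young My-HSCs. Its groups did not overlap, although the old library closest to the young ones differed from them by little (-1.29 ± 0.47, adjusted p = 0.528). The small-subunit genes Mrps27 and Mrps26 followed at -1.33 ± 0.63 and -0.61 ± 0.37, then the large-subunit genes Mrpl50 and Mrpl58 at -0.52 ± 0.42 and -0.58 ± 0.49. Several of these differences were smaller when 1 library was left out. Without young My-HSC library 1 the change was 0.62 for Mrpl52, 0.30 for Mrpl19, 0.40 for Mrps18b and -0.21 for Mrpl50. Without old My-HSC library 1, where Mrps27 stood at 1.63 FPKM, it was -0.61 for Mrpl38 and -0.37 for Mrps27, and Mrpl58 was at -0.26 without young My-HSC library 3. In all, 7 members were higher and 3 lower in every old My-HSC library than in any young one, 11.9% and 5.08%, against 11.3% and 7.8% of all genes.

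**Figure D2:**
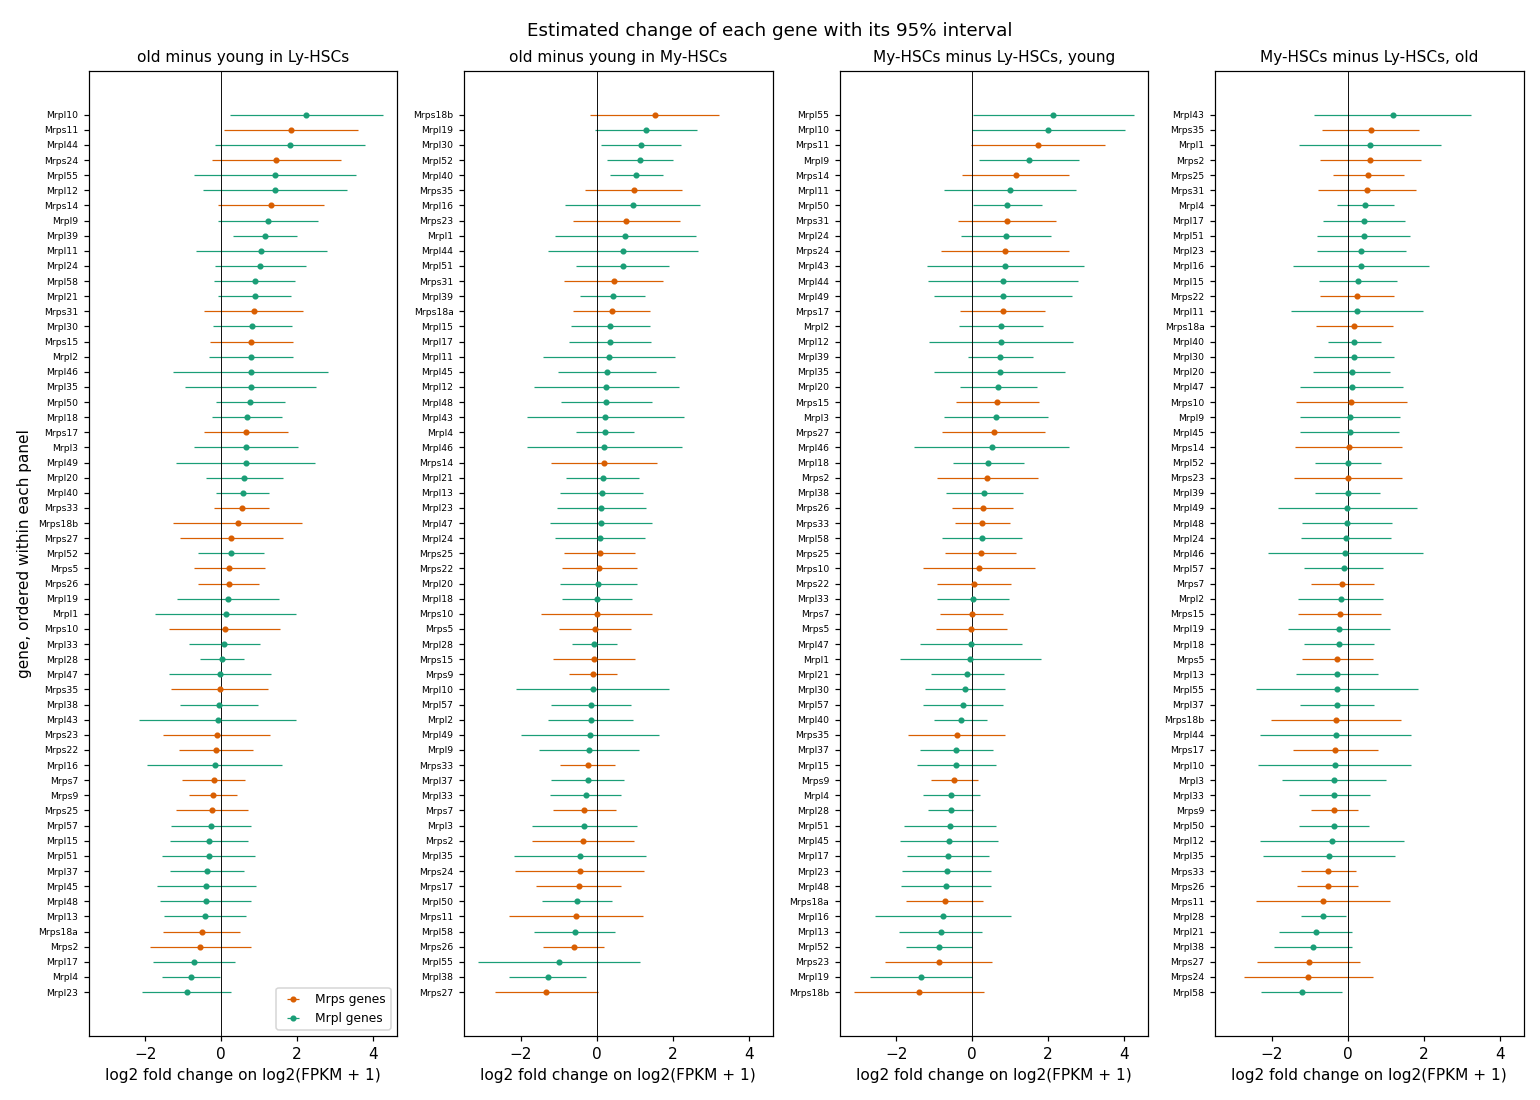
Log2 fold change on log2(FPKM + 1) of each of the 59 genes (points) with its 95% interval from limma (bars), ordered within each panel, for old minus young Ly-HSCs, old minus young My-HSCs, My-HSCs minus Ly-HSCs in young and My-HSCs minus Ly-HSCs in old mice. Orange marks Mrps and green Mrpl genes. Points lie on both sides of 0 in every panel, the intervals of 4, 4, 5 and 2 genes leave out 0, and no gene passed after adjustment.

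The third comparison set My-HSCs against Ly-HSCs of young mice. Of the members, 33 stood higher in young My-HSCs, 55.9% against 59.2% of all genes, at a median log2 fold change of 0.22, against 0.13 over all genes. No member was called by limma, where 0.119% of all genes were, and the smallest adjusted p was 0.296. At an unadjusted p under 0.05, 3 were higher and 2 lower, 5.08% and 3.39% of members, against 9.59% and 4.21% of all genes. The median turned to -0.16 without young Ly-HSC library 1. Mrpl9 was at 38.7, 18.0 and 23.4 FPKM in young My-HSCs and at 1.62, 22.5 and 12.1 FPKM in young Ly-HSCs, with overlap (1.51 ± 0.61, adjusted p = 0.296). Mrpl50, a mitochondria-specific large-subunit protein, was higher in every young My-HSC library, at 26.8, 13.9 and 13.6 FPKM, against 9.57, 13.3 and 4.80 FPKM in young Ly-HSCs (0.93 ± 0.42, adjusted p = 0.353). That gap was narrow, since the lowest My-HSC and the highest Ly-HSC library were almost level.

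Mrpl55, Mrpl10 and Mrps11 followed with changes of 2.13 ± 0.98, 2.01 ± 0.93 and 1.74 ± 0.82 and adjusted p-values of 0.360, 0.366 and 0.373. Each of them had at least 1 young Ly-HSC library at or near 0, and Mrpl10 passed without young Ly-HSC library 2, at 3.26 ± 0.73 and an adjusted p of 0.0385. The library left out held the highest Mrpl10 value of young Ly-HSCs, 18.8 FPKM. On the lower side, Mrpl52 had a change of -0.88 ± 0.40 and Mrpl19 one of -1.34 ± 0.62. Mrpl28, counterpart of a bacterial large-subunit protein, was lower in every young My-HSC library, at 26.3, 24.3 and 25.6 FPKM, against 52.3, 37.4 and 27.9 FPKM in young Ly-HSCs (-0.56 ± 0.27, adjusted p = 0.390). Mrps18b and Mrpl13 were at -1.40 ± 0.79 and -0.83 ± 0.50. Without young My-HSC library 1 the change was -0.35 for Mrpl52, -0.34 for Mrpl19, -0.28 for Mrps18b, -0.25 for Mrpl13 and 0.71 for Mrps11. Without young Ly-HSC library 1 it was 0.59 for Mrpl9, 1.13 for Mrpl55 and -0.34 for Mrpl28, and without young Ly-HSC library 3 it was 0.56 for Mrpl50 and 1.11 for Mrpl10. Libraries did not overlap for 2 members that were higher and 3 that were lower, 3.39% and 5.08%, against 8.97% and 4.41% of all genes.

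In the fourth comparison, of My-HSCs with Ly-HSCs of old mice, 26 members stood higher in old My-HSCs, 44.1% against 52.0% of all genes. The median log2 fold change was -0.064 over the members and 0.018 over all genes. No member was called by limma, where 0.0275% of all genes were, which is 3 genes. With replicate numbers as blocks kept separate for each age, the block that matches pairing among old libraries, 0 genes were called, and with 1 block per number across both ages 1 gene was. The adjusted p was 1.0 for every member. At an unadjusted p under 0.05 no member was higher and 2 were lower, 0.0% and 3.39% of members, against 2.48% and 1.55% of all genes. Both of them were lower in every old My-HSC library. Mrpl58, a peptidyl-tRNA hydrolase that frees stalled mitochondrial ribosomes, was at 4.80, 5.54 and 3.29 FPKM in old My-HSCs and at 20.99, 10.1 and 7.14 FPKM in old Ly-HSCs (-1.21 ± 0.49). Mrpl28 was at 22.9, 26.3 and 23.6 FPKM in old My-HSCs and at 53.8, 28.3 and 37.4 FPKM in old Ly-HSCs (-0.65 ± 0.27). In both genes old Ly-HSC library 1 was the farthest above the rest.

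Mrpl38, Mrpl21 and Mrps27 followed at -0.92 ± 0.47, -0.84 ± 0.45 and -1.02 ± 0.63. On the higher side stood Mrpl4 at 0.46 ± 0.35, Mrps25 at 0.55 ± 0.44, Mrpl43 at 1.18 ± 0.96, Mrps35 at 0.60 ± 0.59 and Mrps2 at 0.59 ± 0.62. Without old Ly-HSC library 1 the change was -0.80 for Mrpl58, -0.41 for Mrpl28, 0.19 for Mrpl43, 0.25 for Mrps25 and -0.18 for Mrps2. Without old My-HSC library 1 it was -0.23 for Mrpl38, -0.50 for Mrpl21, -0.063 for Mrps27 and 0.31 for Mrps35. Without all 4 libraries numbered 1, those of Mrpl43, Mrps2 and Mrps27 turned to -0.18, -0.037 and 0.018. Libraries did not overlap for 3 members that were higher and 6 that were lower in old My-HSCs, 5.08% and 10.2%, against 9.19% and 7.53% of all genes. Mrpl28 and Mrpl19, a counterpart of a bacterial large-subunit protein, had My-HSC libraries that all lay below those of Ly-HSCs at both ages. The share of all genes that did so at both ages was not counted, so whether these members stand out is not known. Averaged over the ages, the change was -0.61 ± 0.19 (adjusted p = 0.221) for Mrpl28 and -0.78 ± 0.44 (adjusted p = 0.544) for Mrpl19, and both were singled out here after their values were seen.

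**Figure D3:**
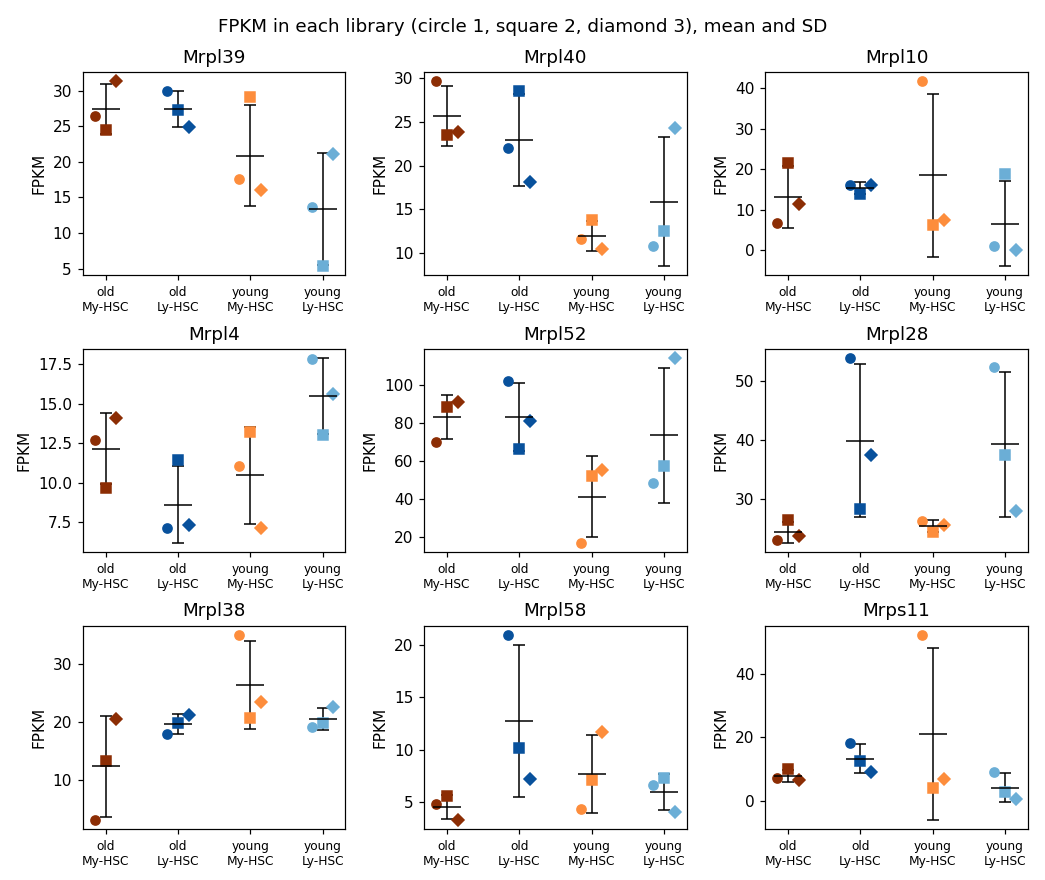
FPKM of 9 genes in each library (circle, square and diamond for libraries 1, 2 and 3) of old My-HSCs, old Ly-HSCs, young My-HSCs and young Ly-HSCs, with the group mean and SD as bars (n = 3 each). Mrpl39 stands higher in the 3 old than in the 3 young Ly-HSC libraries and Mrpl40 higher in the 3 old than in the 3 young My-HSC libraries, while Mrpl10 and Mrps11 have 1 young My-HSC library above 40 FPKM.

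Whether the log2 fold change of old against young cells differed between My-HSCs and Ly-HSCs was tested as an interaction. It was positive where the fold change, with its sign, was higher in My-HSCs. A positive value therefore need not mean a larger difference between ages in My-HSCs. Mrpl17, with a positive interaction, changed by -0.71 in Ly-HSCs and by 0.35 in My-HSCs. No gene passed, among the members or in the whole table (0.0% called by limma). At an unadjusted p under 0.05, 0 members were above 0 and 1 was below, against 1.99% and 3.66% of all genes. In all 26 members were above 0, 44.1% against 42.8%. The median was -0.25 over the members and -0.12 over all genes. Without young Ly-HSC library 1 it was -0.033 over the members. The 1 member at an unadjusted p under 0.05 was Mrpl50, at -1.29 ± 0.60 (adjusted p = 0.867). The lowest estimates were those of Mrpl55 at -2.41 ± 1.39, Mrps11 at -2.38 ± 1.16, Mrpl10 at -2.35 ± 1.32 and Mrps24 at -1.91 ± 1.11. The highest were those of Mrpl19 at 1.12 ± 0.88, Mrpl16 at 1.12 ± 1.17, Mrps18b at 1.09 ± 1.12 and Mrpl17 at 1.06 ± 0.70. Without young My-HSC library 1 the interaction was -0.036 for Mrps18b, 0.12 for Mrpl19 and for Mrpl16, 0.62 for Mrpl17 and -1.35 for Mrps11. It was -1.42 for Mrpl55 without young Ly-HSC library 1, and -1.45 for Mrpl10 and -1.02 for Mrps24 without young Ly-HSC library 3. Without the 4 libraries numbered 1, Mrpl16 was at -0.68.

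Averaging the age effect over both subsets, 40 of 59 members stood higher in old cells, 67.8% against 62.7% of all genes, at a median of 0.17, against 0.13. None was called by limma, where 0.844% of all genes were. Before adjustment, at p under 0.05, 4 members were higher and 0 lower, 6.78% and 0.0% of them, against 11.1% and 3.54% of all genes. The 4 were Mrpl40 at 0.81 ± 0.23 (adjusted p = 0.130), Mrpl30 at 0.99 ± 0.34, Mrpl39 at 0.79 ± 0.28 and Mrpl52 at 0.70 ± 0.29, all large-subunit genes that stood higher in old cells. Mrpl40 passed without young Ly-HSC library 3, at 0.97 ± 0.19 and an adjusted p of 0.0343. Averaged over the ages, 29 members stood higher in My-HSCs, 49.2% against 58.1% of all genes, and limma called none, where 0.413% of all genes were called. At an unadjusted p under 0.05, 0 were higher and 1 was lower, 0.0% and 1.69%, against 7.33% and 3.83% of all genes.

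What these tests could have resolved is set by the intervals. A member's 95% interval reached a median of 1.17 on the log2 scale to either side of its estimate in the 4 comparisons of 2 groups. The fit took 1 variance per gene over the 4 groups, so this width was the same in each comparison. Replicate spread was wider in young than in old cells. The intervals may therefore be too wide between old subsets and too narrow between young subsets. Only 3 members in the age comparison of Ly-HSCs, 6 in that of My-HSCs, 3 in that of young subsets and 5 in that of old subsets had an interval that lay wholly between -1 and 1. For the other members the interval reached past 1 or -1, and a missing call does not show that a gene was the same in both groups.

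The replicate spread of the members was widest in young cells, a description with no test. The median SD of log2(FPKM + 1) over the 3 libraries of a group was 0.27 in old My-HSCs, 0.34 in old Ly-HSCs, then 0.62 in young My-HSCs and 0.92 in young Ly-HSCs. Over all genes tested the same medians were 0.28, 0.35, 0.43 and 0.68, so that the members were like other genes in old cells and more variable than the median gene in young ones. In Ly-HSCs 49 of 59 members, and in My-HSCs 45, had a larger SD in young than in old cells, against 74.99% and 68.7% of all genes. The number of members with an SD over 1 was 3 in old My-HSCs, 2 in old Ly-HSCs, then 16 in young My-HSCs and 25 in young Ly-HSCs. The share of all genes with an SD over 1 was not counted, so whether these numbers stand out is not known. Counting error alone would give an SD of 0.053 to 0.076 at the median of 381 to 650 fragments per gene and library estimated from the smallest values, below the median spread of each group. This estimate treats every sequenced fragment as an independent draw, so it leaves out any noise that arose before sequencing. Relative depth was 0.768 to 1.0 in old My-HSCs, 0.607 to 1.06 in old Ly-HSCs, then 0.732 to 0.785 in young My-HSCs and 0.351 to 0.697 in young Ly-HSCs, and its part in the spread was not tested. Nuclear genes of oxidative phosphorylation, 62 in number, had median SDs of 0.28 in old My-HSCs, 0.27 in old Ly-HSCs, then 0.50 in young My-HSCs and 0.90 in young Ly-HSCs.

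**Figure D4:**
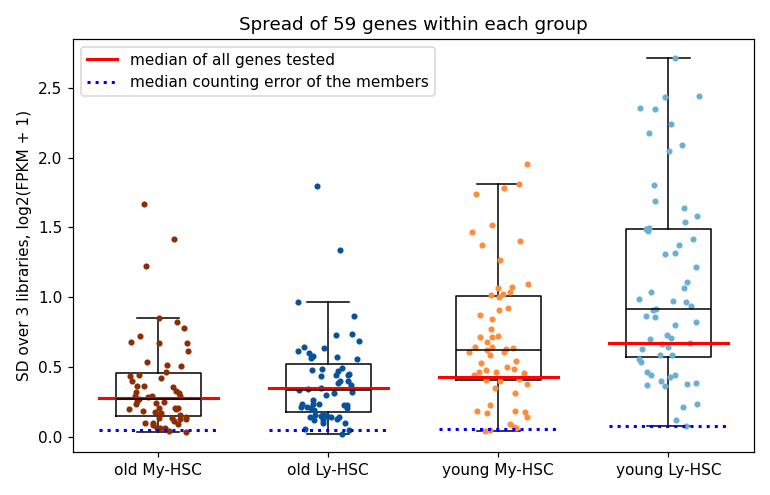
SD of log2(FPKM + 1) over the 3 libraries of each group for the 59 genes (points, with boxes of the quartiles), the median over all genes tested (red line) and the median counting error estimated for the members (dotted blue line). The members' medians were 0.27 in old My-HSCs, 0.34 in old Ly-HSCs, then 0.62 in young My-HSCs and 0.92 in young Ly-HSCs, all above the counting error.

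Library 1 was the one farthest from its group's other libraries for 27 members in old My-HSCs, 34 in old Ly-HSCs, then 30 in young My-HSCs and 31 in young Ly-HSCs. As shares of the members these are 45.8%, 57.6%, 50.8% and 52.5%, and over all genes library 1 was farthest in 54.7%, 55.4%, 45.3% and 44.0%. Correlations between libraries across the 59 genes, given as a description, ran from 0.71 to 0.92 in old My-HSCs, from 0.73 to 0.91 in old Ly-HSCs, from 0.47 to 0.73 in young My-HSCs and from 0.15 to 0.44 in young Ly-HSCs. In each group the pair without library 1 was the most alike. Between groups, the profiles of mean level correlated at 0.89 for old My-HSCs with old Ly-HSCs and at 0.70 for young My-HSCs with young Ly-HSCs.

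The spread reached single genes that every other library expressed. Of the 59 genes, 5 were listed at 0 in young Ly-HSC library 1, namely Mrpl1, Mrpl11, Mrpl44, Mrpl46 and Mrpl55, and Mrpl10 was listed at 0 in young Ly-HSC library 3. Mrps18b was listed at 0 in young My-HSC library 1, and no member was at 0 in an old library. At the mean of the other 2 libraries of the group, the estimated depth would have given between 81.9 fragments for Mrpl55 and 434.5 for Mrpl1. Mrpl1, which forms the stalk that moves tRNA out of the ribosome, stood at 15.8 and 15.6 FPKM in the other 2 young Ly-HSC libraries. Mrpl44, which has the fold of an RNA-cleaving enzyme, stood at 19.4 and 3.08 FPKM there, and Mrpl46 at 15.2 and 35.04 FPKM. The cause of these zeros was not tested.

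Over the 1711 pairs of members, the median correlation of log2(FPKM + 1) across the 12 libraries was 0.011, with 51.1% of pairs above 0 and quartiles of -0.28 and 0.32. Mrps15 followed the mean of the other members best, at 0.91, then Mrpl24 at 0.84, Mrpl44 and Mrpl46 at 0.82 each and Mrpl35 at 0.79. The least alike were Mrps25 at -0.57, Mrpl4 at -0.55, Mrpl15 at -0.50, Mrpl51 at -0.48 and Mrps7 at -0.48. Without young Ly-HSC library 1, the shallowest, the value was 0.53 for Mrpl44, 0.41 for Mrps15, 0.13 for Mrpl24, 0.10 for Mrpl46 and 0.021 for Mrpl35. Mrps15, which helps to join the subunits, shows this in its own values of 28.6, 29.6 and 32.5 FPKM in old My-HSCs, 31.1, 35.5 and 39.1 in old Ly-HSCs, then 27.7, 42.5 and 27.3 in young My-HSCs, with 5.71, 37.7 and 33.9 in young Ly-HSCs. These 12 libraries share groups, depth and replicate numbers, so the correlations are descriptions without a test.

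Promoters were examined because genes for mitochondrial proteins are known to share binding sites of NRF-1, of GABP and other ETS factors, and of YY1. The 150 bases upstream of the RefSeq start, on the plus strand of GRCm38.p6, are given for 5 members named above. Mrpl52, at chr14:54426759-54426908, is the highest gene, and Mrpl10, at chr11:97041432-97041581, passed between ages in Ly-HSCs and between young subsets when a library was left out. Mrpl58, at chr11:115403602-115403751, had the smallest p between old subsets. Mrps15, at chr4:126046778-126046927, followed the other members most closely, and Mrpl9, at chr3:94443186-94443335, had the smallest p between young subsets. Capitals mark the searched motifs on either strand: GCATGCG for NRF-1, CCGGAA for GABP and other ETS factors and AAGATGG for YY1. The E-box of Myc, CACGTG, was searched as well and is in none of these 5 stretches. Where capitals run to CGCATGCG, the NRF-1 letters of both strands overlap.
Mrpl52: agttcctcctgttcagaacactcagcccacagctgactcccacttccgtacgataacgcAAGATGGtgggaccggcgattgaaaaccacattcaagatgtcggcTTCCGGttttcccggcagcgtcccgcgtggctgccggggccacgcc
Mrpl10: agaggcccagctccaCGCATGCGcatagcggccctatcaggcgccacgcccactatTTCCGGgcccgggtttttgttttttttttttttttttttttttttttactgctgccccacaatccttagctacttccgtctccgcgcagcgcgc
Mrpl58: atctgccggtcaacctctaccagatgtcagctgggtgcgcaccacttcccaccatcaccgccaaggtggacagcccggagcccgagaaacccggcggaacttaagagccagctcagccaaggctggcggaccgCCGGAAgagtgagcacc
Mrps15: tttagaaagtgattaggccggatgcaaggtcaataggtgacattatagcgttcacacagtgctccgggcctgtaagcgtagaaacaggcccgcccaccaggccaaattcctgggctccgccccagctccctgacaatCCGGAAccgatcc
Mrpl9: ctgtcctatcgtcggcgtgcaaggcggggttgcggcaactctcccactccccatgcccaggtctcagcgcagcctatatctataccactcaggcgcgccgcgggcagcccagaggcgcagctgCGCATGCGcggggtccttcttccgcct

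Over the whole table, 53 of the 59 genes had a RefSeq promoter of 300 bases, from 250 before to 50 after the start. The ETS and GABP letters were present in 29 of the 53, or 54.7%, against 29.2% of the promoters of genes tested and 15.2% of all promoters. The YY1 letters were in 9, or 17.0%, against 7.21% and 6.48%. The NRF-1 letters were in 6, or 11.3%, against 6.73% and 3.64%, and the E-box was in 3, or 5.66%, against 10.4% and 7.24%. At least 1 of the first 3 motifs was in 36 promoters, or 67.9%, against 38.2% of genes tested and 22.97% of all. Mrpl39 and Mrpl40, the genes of smallest p between ages, both held the ETS and GABP letters, at base 36 before the start of Mrpl39 and base 14 after that of Mrpl40, and Mrpl39 also held those of NRF-1. A match of letters is a description and not a site of binding. None of the factors measured was called between any 2 groups.

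**Figure D5:**
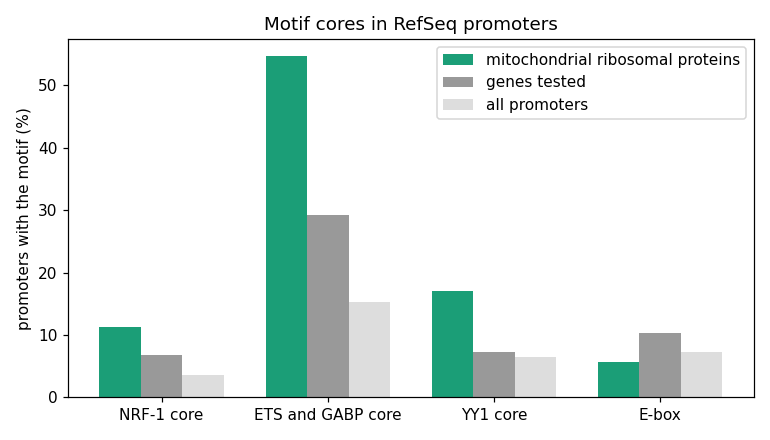
Share of RefSeq promoters (percent, 300 bases each) that hold each motif on either strand, for the 53 matched mitochondrial ribosomal protein genes (green), the 8555 matched genes tested (grey) and all 27025 promoters (light grey). The ETS and GABP letters are in 54.7% of the members' promoters, against 29.2% and 15.2%, and the E-box in 5.66%, against 10.4% and 7.24%.

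The 59 genes lie on 16 chromosomes, with 9 on chromosome 11, and 19 of them overlap another protein-coding gene in GENCODE M21, 18 only on the opposite strand. The library kit keeps the strand, but the sources used here do not say whether counting used it, so reads of overlapping genes may be shared. Mrpl46 and Mrps11, on chromosome 7, are both members and overlap head to head by 413 bases. In old Ly-HSCs Mrpl46 stood at 14.4, 14.1 and 11.7 FPKM and in young Ly-HSCs it was listed at 0 and stood at 15.2 and 35.04 FPKM. Mrps11, at the values given above, was highest in the young Ly-HSC library where Mrpl46 was listed at 0 and lowest where Mrpl46 was highest. The other groups did not show this opposite order. Both genes were highest in library 1 and lowest in library 3 of old Ly-HSCs. In old My-HSCs both were highest in library 2, and in young My-HSCs both were lowest in library 2. Mrpl43 overlaps Twnk, the mitochondrial DNA helicase, by 780 bases, and Mrpl47 overlaps Ndufb5, a subunit of respiratory complex I, by 616 bases. Mrpl40, the gene of smallest p between ages in My-HSCs, is overlapped by Gm28539 on the opposite strand over its whole span of 4845 bases. Mrps24 overlaps Urgcp by 2264 bases on the same strand, Mrpl19 overlaps Gcfc2 by 2065 bases and Mrpl9 overlaps Oaz3 by 598 bases. The part of shared reads in the values of these genes was not tested. Overlap by Rbks covers 39946 bases of the annotated span of Mrpl33.

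Lists of other genes of mitochondrial protein synthesis held no called gene. For the counts that follow, 62.4% of all genes tested stood higher in old than in young Ly-HSCs, and 55.8% in old than in young My-HSCs. Of 7 listed mitochondrial ribosome proteins with other names, 4 had a row, and 3 of these stood higher in old than in young Ly-HSCs. Ptcd3, of the small subunit, was at 23.3, 13.9 and 14.2 FPKM in old Ly-HSCs and at 3.41, 3.21 and 16.2 FPKM in young Ly-HSCs, with overlap (1.37 ± 0.52, adjusted p = 0.292). Among 15 measured translation factors, 7 stood higher in old Ly-HSCs and 8 in old My-HSCs, with none called. Mrrf, the recycling factor, was higher in every old My-HSC library, at 23.1, 19.6 and 17.7 FPKM, against 9.21, 10.4 and 10.1 FPKM in young My-HSCs (0.95 ± 0.33, adjusted p = 0.504). Mtfmt, which formylates the initiator tRNA, was lower in each, at 6.84, 10.99 and 7.72 FPKM, against 26.6, 18.2 and 14.8 FPKM (-1.12 ± 0.34, adjusted p = 0.386).

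Assembly factors and enzymes that modify the ribosomal RNA had 27 of 32 measured, of which 11 stood higher in old Ly-HSCs and 16 in old My-HSCs. Mrm2, a methyltransferase of the large-subunit RNA, had the smallest p of the list. It was at 12.8, 3.09 and 4.85 FPKM in old Ly-HSCs and in young Ly-HSCs it was listed at 0, at 0.117 and at 0 FPKM. All old libraries lay above the young ones (2.74 ± 0.65, adjusted p = 0.113). In young My-HSCs Mrm2 stood at 2.65, 2.65 and 8.57 FPKM, also above the young Ly-HSCs (2.28 ± 0.65, adjusted p = 0.155). Mettl15, which methylates the small-subunit RNA, was at 6.11, 5.77 and 8.37 FPKM in young My-HSCs and at 1.06, 2.53 and 0.041 FPKM in young Ly-HSCs (1.97 ± 0.59, adjusted p = 0.180). No call was made among 19 measured mitochondrial tRNA synthetases and their partners, with 13 higher in old Ly-HSCs and 12 in old My-HSCs.

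Among 13 measured genes of mitochondrial DNA transcription and replication, 7 stood higher in old Ly-HSCs and 7 in old My-HSCs, and 3 in old My-HSCs against old Ly-HSCs. The shares over all genes tested were 62.4%, 55.8% and 52.0%. Between ages in Ly-HSCs, Mterf1a had the smallest p of this list, with a change of 2.20 ± 0.64 (adjusted p = 0.175). It stood at 7.40, 2.85 and 2.10 FPKM in old Ly-HSCs, against 0, 0.035 and 0 FPKM in young Ly-HSCs. Tfam, which packages mitochondrial DNA, was at 32.1, 19.2 and 12.8 FPKM in old Ly-HSCs and 6.76, 11.8 and 9.01 FPKM in young Ly-HSCs, without overlap (1.07 ± 0.47, adjusted p = 0.348). Tefm stood lower in old Ly-HSCs, at -1.39 ± 0.74 (adjusted p = 0.433). All 10 listed regulators of nuclear genes for mitochondria were measured and none was called, with 5 higher in old Ly-HSCs and 5 in old My-HSCs. Between ages in Ly-HSCs, Esrra had a change of 1.95 ± 0.74 (adjusted p = 0.286) and Ppargc1a one of -1.20 ± 0.63 (adjusted p = 0.429). Nrf1 was at 8.00, 12.2 and 13.7 FPKM in old Ly-HSCs and 1.42, 16.1 and 9.04 FPKM in young Ly-HSCs (0.69 ± 0.58, adjusted p = 0.629). Between young subsets, Myc had a change of -0.59 ± 0.23 (adjusted p = 0.284). Yy1 was at 38.3, 61.6 and 39.7 FPKM in young My-HSCs and 42.2, 74.9 and 72.0 FPKM in young Ly-HSCs (-0.42 ± 0.26, adjusted p = 0.491).

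Of 62 nuclear genes of oxidative phosphorylation, whose products work beside those made by the mitochondrial ribosome, 51 stood higher in old than in young Ly-HSCs at a median log2 fold change of 0.47. In My-HSCs 45 stood higher in old cells at a median of 0.29. None of them was called, and between the subsets 35 stood higher in young My-HSCs, and among old cells 24 stood higher in old My-HSCs. Atp5g3, a ring subunit of the ATP synthase, had the smallest p of the list, at 34.5, 32.4 and 23.3 FPKM in young My-HSCs and 9.68, 11.95 and 14.1 FPKM in young Ly-HSCs, without overlap (1.26 ± 0.25, adjusted p = 0.0608). Uqcrq, a subunit of complex III, was higher in every old Ly-HSC library, at 26.1, 19.3 and 25.4 FPKM, against 3.65, 12.8 and 13.0 FPKM in young Ly-HSCs (1.34 ± 0.40, adjusted p = 0.189). The comparison of the 62 genes with the 59 ribosomal ones was not tested.

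Of the cell cycle genes, 33 of 34 stood higher in old than in young Ly-HSCs at a median of 1.10, and 1 was called, Hmmr at 3.37 ± 0.62 (adjusted p = 0.0438). In My-HSCs 19 of 34 stood higher in old cells. Over all genes tested, 62.4% stood higher in old Ly-HSCs and 55.8% in old My-HSCs, at medians of 0.18 and 0.066. Granulocyte and monocyte markers had 8 of 8 tested genes higher in old Ly-HSCs and 7 of 8 in old My-HSCs, at medians of 2.09 and 1.92, with none called. Some of them stood far higher in library 1 of each old group. Mmp9 was at 69.3, 4.32 and 3.53 FPKM in old My-HSCs and 67.4, 0.372 and 0.629 in old Ly-HSCs. Itgam was at 124.5, 23.5 and 18.0 FPKM and at 160, 19.4 and 28.3. Prtn3 was more even, at 106, 79.7 and 88.6 FPKM and at 69.7, 58.1 and 54.0. Cd68 was lowest in library 1 of old Ly-HSCs, at 2.63 FPKM. Erythroid markers had 8 of 8 higher in old Ly-HSCs and 7 of 8 in old My-HSCs, B and T cell markers 3 of 5 in each, and megakaryocyte markers 4 of 4 and 2 of 4. Their part in the values of the ribosomal genes was not tested. Between subsets, 0 of 4 multipotent progenitor markers stood higher in young or in old My-HSCs, at medians of -1.44 and -1.57 with none called, and averaged over the ages 2 of the 4 were called lower. HSC markers had 8 of 11 higher in young My-HSCs with none called, 11 of 11 higher in old My-HSCs with 1 called, and 10 of 11 higher over both ages with 4 called. In the same comparisons 59.2%, 52.0% and 58.1% of all genes stood higher in My-HSCs, and 0.119%, 0.0275% and 0.413% were called. Between ages 1 HSC marker was called in Ly-HSCs, Ly6a, which encodes the sorting antigen Sca-1, at 2.96 ± 0.55 (adjusted p = 0.0440). Vwf, on the megakaryocyte list, was called between young subsets at 3.40 ± 0.53 (adjusted p = 0.0311).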

How the data were processed

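The KAPA kit for stranded mRNA-seq was used and both ends of fragments were read, per the labels' protocols. The authors deposited 1 table of FPKM for all 12 libraries, without counts, so that read totals are unknown. STAR, bcl2fastq 2.17, DESeq2, GRCm38 and mm10 appear, without roles, per the submitters' processing notes. Of the annotation and of reads shared between genes nothing is stated there. Young Ly-HSC library 1 and others list genes used by every cell at 0, so a value of 0 is given as listed.

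Values were analysed as log2(FPKM + 1) for the 10900 genes that reached 1 FPKM in at least 3 libraries; fold changes on this scale understate those of low genes. The 4 group means were estimated together by limma 3.58.1 (R 4.3.3), whose prior variance followed the mean level (8 residual and 5.11 prior degrees of freedom). P-values are two-sided and adjusted by Benjamini-Hochberg over all genes of a contrast, with a threshold of 0.05. The 7 contrasts share groups. Errors are SDs over libraries for FPKM and standard errors for log2 fold changes. The code was tested on simulated data.

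Relative depth was estimated as what 1 fragment is worth among low values of FPKM times exon length, so counting errors are approximate. Replicate numbers come from the titles. Over all genes, old My-HSC and old Ly-HSC libraries of the same number deviated together from their group means, with correlations 0.26, 0.23 and 0.21. For the young libraries they were 0.048, 0.0026 and 0.0023, so over all genes the numbers pair the old libraries only. Over the members the correlations were -0.18, -0.12 and -0.099 for the old libraries and -0.10, -0.10 and -0.14 for the young ones. The members thus did not show the pairing, and the 3 values of a set are not independent. Members and gene lists were chosen with earlier results of these data known. Genes are named by rule: those called, the 5 of smallest p in each direction of each 2-group contrast, the 8 highest and 8 lowest in level, the 4 highest and 4 lowest interactions, the 5 best and 5 least correlated, and the Mrps18 paralogs and Mrps36; of other lists, those called or among the 3 of smallest p. Genes listed at 0 in a library were to be counted only, and their names are given after their values were seen. Promoters are RefSeq's on GRCm38.p6, the first entry where a gene has several, and gene positions are those of GENCODE M21. Python 3.11.15 was used for the summaries.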

Additional observations from a re-analysis of the deposited data

How the results depend on the processing

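Across 23 alternative settings, 0 members were called in 111 of 113 refits of the 5 contrasts. The exceptions were both made by leaving out young Ly-HSC library 2, when 1 member, Mrpl10, was called between old and young Ly-HSCs and between young My-HSCs and young Ly-HSCs, so that single omissions gave 0 to 1 called members. Among the named genes, 1065 of 1076 refits kept the direction and the side of the threshold, 2 were those of Mrpl10, and 9 changed sign, with a cause that was not tested. None of these genes was called to begin with, so the same side means still uncalled. Leaving out a library of a group outside a 2-group contrast cannot change its log2 fold change. Part of this agreement was therefore fixed in advance. Without old Ly-HSC library 1 the log2 fold change between old and young Ly-HSCs was 0.0415 for Mrps18a and 0.2211 for Mrps2, and that of Mrps2 between old subsets was -0.1831. Without the 4 libraries numbered 1, a setting chosen after seeing the data, Mrps18a stood at 0.1741 between old and young Ly-HSCs, and between old subsets Mrpl43 stood at -0.1752, Mrps2 at -0.0369 and Mrps27 at 0.0177. The interaction was -0.0358 for Mrps18b without young My-HSC library 1 and -0.6774 for Mrpl16 without the 4 libraries numbered 1. When 1 library was left out, the lowest and highest values of these genes were -0.832 and 0.0415 for Mrps18a and -1.1003 and 0.2211 for Mrps2 between ages in Ly-HSCs, -0.1831 and 1.0318 for Mrps2 between old subsets, and -0.0358 and 1.7355 for the interaction of Mrps18b. The members' median moved beyond its spread in 4 refits: to 0.53 between old and young Ly-HSCs without young Ly-HSC library 3, to -0.16 and -0.032 between young subsets without young Ly-HSC library 1 and without all libraries numbered 1, and to -0.033 in the interaction without young Ly-HSC library 1. After quantile normalization the median log2 fold change of the members tested, old minus young in Ly-HSCs, was 0.145 and that of all genes -0.0091, against 0.25 and 0.18 as deposited. With the replicate block 0 members were called in every contrast. Counts over all genes moved by over 1.5 times in 73 of 113 refits. Old against young Ly-HSCs gave 38 genes, 46 with a pseudocount of 0.1, 15 with the replicate block, 0 with relative depth as a covariate and 7 to 223 when 1 library was left out. Old against young My-HSCs gave 23, 9 with the block, 71 with 1 weight per group, 1 with TPM or with a pseudocount of 0.1, and 0 to 36 with 1 library left out. Between young subsets the counts were 13, 4 with the block, 0 with the block within each age, 0 to 32 under the other settings and 0 to 299 with 1 library left out. Between old subsets they were 3, 1 with the block, 0 with the block within each age, 69 with 1 weight per group, 29 with no filter on low values, and 0 to 6 with 1 library left out. The interaction gave 0, and 6 with no filter. Where a group was left with 2 libraries, its spread was taken from all groups. Intervals are wide at 3 libraries a group. The estimated counting error was below the spread between libraries in each group, while the part of depth in that spread was not tested.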
